A study of Mus musculus with 2 samples.

Results

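The regions described here are the peaks of methylated DNA in the 4 main antigen receptor loci of the mouse. These are Igh, which encodes the immunoglobulin heavy chain, and Igk, which encodes the kappa light chain. The others are Tcra/Tcrd, the nested genes of the T cell receptor alpha and delta chains, and Tcrb, the gene of the beta chain. A peak was assigned to a locus when its midpoint lay in a fixed stretch of the mm9 genome: chromosome 12 from 114490000 to 117250000 for Igh, chromosome 6 from 67500000 to 70680000 for Igk, chromosome 14 from 53000000 to 54850000 for Tcra/Tcrd and chromosome 6 from 40840000 to 41510000 for Tcrb. Together the stretches span 8.46 Mb and hold 345 peaks of the 342199 nuclear peaks in both lists, 169 of them with regular chow (STD) and 176 with the high-fat diet (HFD).

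The data come from MeDIP-seq, in which an antibody against 5-methylcytosine captures methylated fragments of genomic DNA for sequencing. The DNA came from epididymal white adipose tissue, a visceral fat depot, of male C57BL/6J mice, an inbred strain. All were assigned to a diet at 4 weeks of age and kept on it for 5 months, either the regular chow or a diet with 60% of its energy from fat. Each diet has 1 library, the number of mice behind it is not given in the sources used here, and only the positions of peaks are known, so the depth is unknown and no difference between diets has a replicate check. No p-value is given. Intervals are 95% intervals and cover counting error only. A peak list holds no marker expression, so the tissue label could not be checked.

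Antigen receptor genes are assembled from separate pieces of DNA. During the development of B cells the recombinase RAG joins variable (V), diversity (D) and joining (J) segments of Igh and V and J segments of Igk, and T cells do the same at the T cell receptor loci. A constant gene at the end of each locus supplies the invariable part of the chain. In cells outside the lymphoid lineages, such as adipocytes, these loci stay in their germline order and are largely silent, with most of their length taken up by long arrays of V segments.

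The gene order in the RefSeq annotation (GRCm38.p6, a later build, used here for order and names only) puts the constant end of Igh at its lower coordinates. From there, 8 constant gene entries from Igha to Ighm are followed by 4 J, 20 D and 183 V segment entries, of which 63 of the V entries are pseudogenes. In the other 3 loci the constant end is at the upper coordinates. Igk runs through 162 V entries to 5 J entries and Igkc, and Tcra/Tcrd through 130 alpha V entries to the delta segments, 60 alpha J entries and Trac. Tcrb has 35 V entries, and trypsinogen genes such as Prss1 and Prss2, which encode digestive proteases, lie among them, ahead of Trbd1, the first D segment. No peak was placed at a single segment.

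Methylated peaks were sparse in all 4 loci with both diets. Igh held 49 STD and 39 HFD peaks in 2.76 Mb, or 17.8 (13.1 to 23.5) and 14.1 (10.1 to 19.3) peaks per Mb. Igk held 59 and 70 peaks in 3.18 Mb, or 18.6 (14.1 to 23.9) and 22.01 (17.2 to 27.8) per Mb. Tcra/Tcrd was the densest, with 52 and 57 peaks in 1.85 Mb, or 28.1 (21.0 to 36.9) and 30.8 (23.3 to 39.9) per Mb. In Tcrb, the shortest, 9 and 10 peaks in 0.67 Mb gave 13.4 (6.14 to 25.5) and 14.9 (7.16 to 27.5) per Mb. For comparison, the autosomes carried 68.5 STD and 72.4 HFD peaks per Mb between their first and last peaks. The intervals of the ratio between Igh and Tcrb, and of that between Igk and Tcrb, include 1 in both lists. The density of Igh was 0.642 times that of Igk with HFD (0.422 to 0.963) and 0.957 times with STD (0.642 to 1.42), and the difference between the lists was not tested. Against Tcra/Tcrd, the intervals left out 1 for the other 3 loci in both lists, except for Igk with HFD (0.714, 0.496 to 1.03).

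Each locus was then set against the 2 Mb on either side of it. The flanks were denser than the locus in every case. The Igh locus had 0.171 times the density of its flanks with STD (0.124 to 0.230) and 0.124 times with HFD (0.0868 to 0.172). Its lower flank, beyond the constant genes, was the densest of the 8, with 153.5 STD and 162 HFD peaks per Mb, against 54.5 and 66.5 per Mb in the upper flank. Igk had 0.263 times the density of its flanks with STD (0.195 to 0.349) and 0.284 times with HFD (0.216 to 0.369). Here the flank on the V side held only 40.0 and 44.0 peaks per Mb, and that beyond Igkc 101 and 111. Tcra/Tcrd stood at 0.288 times (0.212 to 0.386) and 0.307 times (0.228 to 0.405) the density of its flanks. For Tcrb the ratios were 0.253 (0.114 to 0.490) and 0.269 (0.127 to 0.504). Over all 4 loci the flanks were 4.07 times as dense as the loci with STD (3.46 to 4.80) and 4.18 times with HFD (3.57 to 4.92). Peak density is not a level of methylation: it was not adjusted for the number of CpG sites or for how well reads map in these repeated segment families, and the part of either was not tested.

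**Figure D1:**
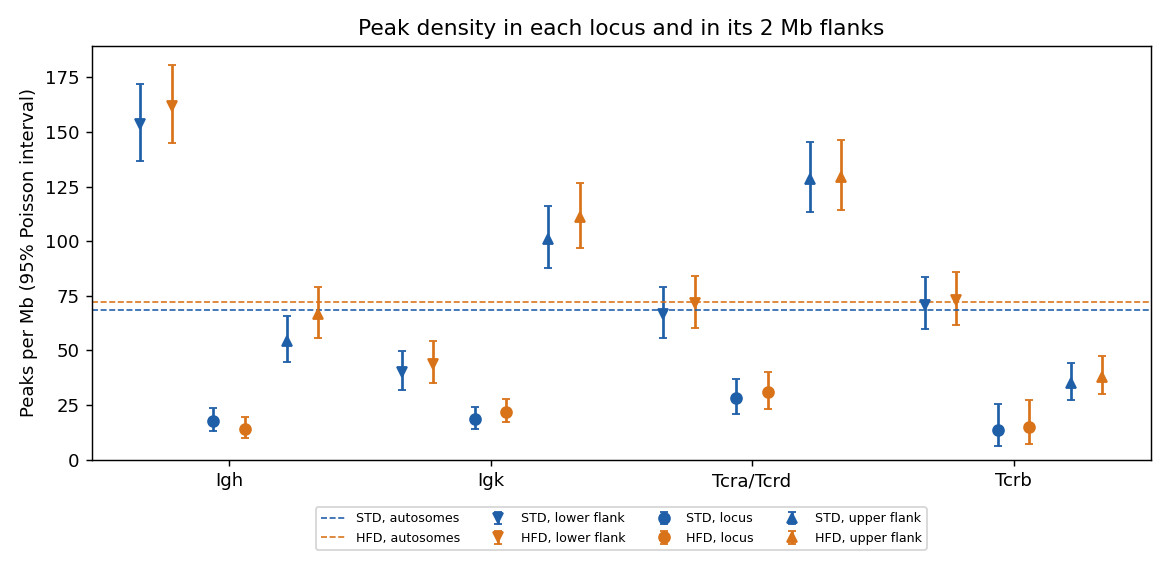
Peaks per Mb (vertical axis) in each locus (circles), its lower flank (downward triangles) and its upper flank (upward triangles) of 2 Mb, for STD (blue) and HFD (orange), with 95% Poisson intervals; dashed lines are the autosomal densities of 68.5 (STD) and 72.4 (HFD). All 8 circles lie below both triangles of the same color and below the dashed lines.

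Stretches as long as each locus were laid end to end along the autosomes to give a background. Of 866 stretches of the length of Igh, 45 held fewer STD peaks than the 49 in Igh, and 14 held fewer HFD peaks than its 39. The median stretch held 180 and 192. For Igk, 37 of 750 stretches (STD) and 62 of 751 (HFD) held fewer, which is 4.93% and 8.26%. For Tcrb, 6.12% (STD) and 7.10% (HFD) of the stretches held fewer. Tcra/Tcrd was less extreme, with fewer peaks in 20.6% and 21.0% of 1294 stretches. Low density is therefore shared with other parts of the autosomes.

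Of the 4 loci, Tcra/Tcrd had the clearest pattern along its length. How evenly peaks are spread along stretches elsewhere was not computed. When each locus was divided into 10 equal parts from its lower border, Tcra/Tcrd held 14 STD and 14 HFD peaks in part 9 and 23 and 24 in part 10, at its constant end. Part 5 held none with either diet, and the 6 parts from 2 to 7 together held 6 and 7 in 1.11 Mb. The 20% of the locus at the constant end thus carried 37 of 52 peaks with STD (71.2%) and 38 of 57 with HFD (66.7%) in 0.37 Mb. Its density was 100 (STD) and 102.7 (HFD) peaks per Mb, above the 68.5 and 72.4 of the autosomes, so this section was not sparse. This density was 9.87 (5.29 to 19.4) and 8.0 (4.50 to 14.7) times that of the other 80%. Against the adjoining upper flank it was 0.778 (0.536 to 1.10) and 0.793 (0.549 to 1.12) times as high, so the intervals reach the density of the flank. The other 80%, on the V side, had 10.1 and 12.8 peaks per Mb, or 0.152 (0.0830 to 0.261) and 0.180 (0.105 to 0.291) times the lower flank.

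Igh changed density close to its constant end. In the 200 kb outside the lower border there were 29 STD and 35 HFD peaks, and in the 200 kb inside it 9 and 12. All 9 and 12 peaks of part 1 lay within those 200 kb, and no other part of Igh held more than 7 STD or 5 HFD peaks. At the upper border the step was from 13 and 13 peaks outside to 3 and 2 inside. Parts 2 to 10 held 40 STD and 27 HFD peaks, spread thinly over 2.48 Mb.

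In Igk the border on the V side was not marked by a drop, with 6 and 6 peaks in the 200 kb outside and 12 and 9 in the 200 kb inside. At the border beyond Igkc, 23 and 24 peaks outside met 4 and 7 inside. The fullest part of Igk was the first, with 12 STD and 10 HFD peaks, and the emptiest was part 9, with 2 of each. The constant end of Igk was not denser than the rest: its last 20% had 0.628 (0.257 to 1.33) and 0.828 (0.404 to 1.56) times the density of the other 80%. The 2 sections of Tcrb are too small for such a comparison, since its last 20% held 1 peak per list.

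**Figure D2:**
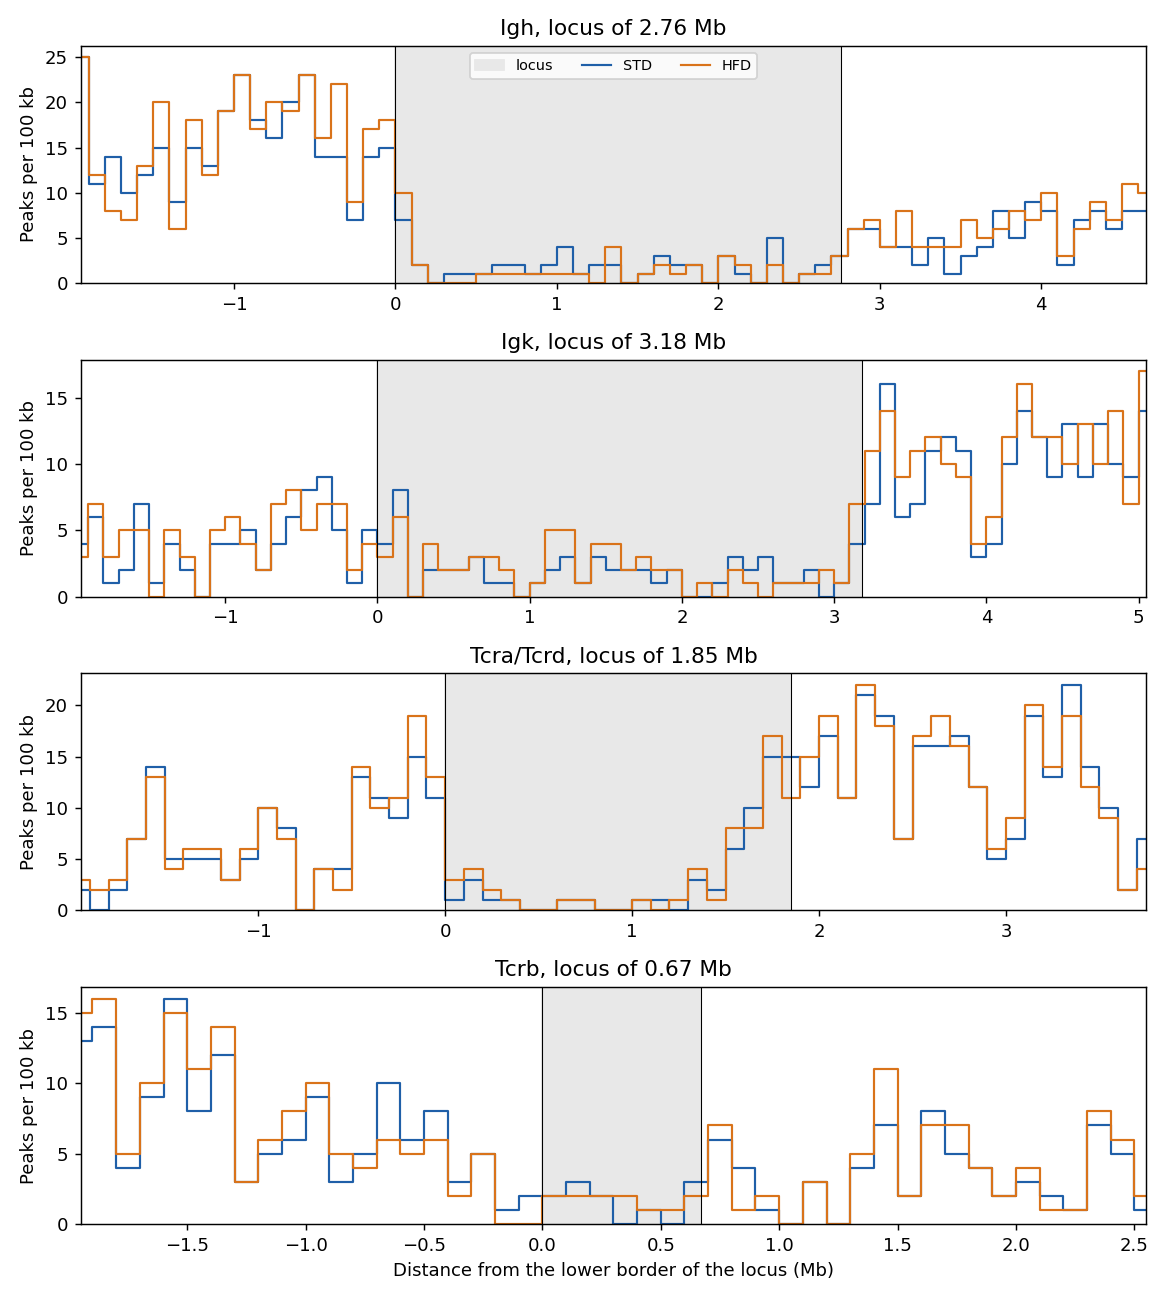
Peaks per 100 kb (vertical axis) against the distance from the lower border of each locus in Mb (horizontal axis), for STD (blue) and HFD (orange), with the locus shaded and 2 Mb on each side. The lines of both diets fall together at the borders of Igh, and in Tcra/Tcrd they rise inside the locus, over its last 20%, before the upper border.

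Long stretches held no peak in either list. In Tcra/Tcrd the longest ran for 329 kb, from 53731670 to 54060935 on chromosome 14. In Igh it was 234 kb on chromosome 12, from 114635413 to 114869102, next to the constant end, and 11 stretches of Igh exceeded 100 kb. With HFD alone the stretch beginning there extended to 115036439, a length of 401 kb. It held 2 STD peaks, of 278 and 263 bp, which are 15 and 0 bp above the narrowest width of the STD list. In Igk the longest was 207 kb, from 68335059 to 68541864 on chromosome 6, and 8 stretches exceeded 100 kb. In Tcrb it was 148 kb, from 41277270 to 41425279 on chromosome 6. The flanks of Igh had no stretch over 100 kb, and their longest was 67.8 kb. The lower flanks of Igk and Tcrb had stretches of 198 and 170 kb, so such gaps were not limited to the receptor loci.

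The diets were compared first by peak number. The HFD over STD ratio was 0.796 in Igh (0.509 to 1.24), 1.19 in Igk (0.827 to 1.71), 1.10 in Tcra/Tcrd (0.739 to 1.63) and 1.11 in Tcrb (0.406 to 3.09). Over the whole lists it was 1.06 (1.05 to 1.06), and in the flanks it ranged from 1.03 to 1.10. Igh was the only locus with fewer HFD than STD peaks, but among peaks of at least 300 bp Igk (0.955) and Tcra/Tcrd (0.865) had fewer too. The whole-list ratio at that limit was not computed, and the median width of the whole list was 321 bp with HFD and 332 bp with STD. Among peaks over 200 bp above the narrowest of their list, the ratio was 1 in Igh, 1.08 in Igk and 0.625 in Tcra/Tcrd. Moving the borders outward by 50 kb also gave fewer HFD peaks in Tcrb (0.923). All 4 intervals include both 1 and the ratio of the whole lists. In a bulk tissue a difference in the mix of cells and a difference in methylation within a cell type cannot be told apart.

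Most peaks had a partner, meaning a peak of the other diet that overlapped by at least 1 bp. Across the 4 loci, 46 of 169 STD peaks and 53 of 176 HFD peaks had none, or 27.2% and 30.1%. Over the whole lists 26.5% (STD) and 30.3% (HFD) had none, so the shares in the loci are near the background. The share with a partner was 72.8% for STD (65.4 to 79.3) and 69.9% for HFD (62.5 to 76.6), and in the flanks it was 74.1% and 69.8%. The receptor loci were thus sparse in peaks, but the peaks they had recurred in the other library about as often as elsewhere.

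By locus the shares varied more, within wide intervals. In Igh, 30 of 49 STD peaks (61.2%, 46.2 to 74.8) and 30 of 39 HFD peaks (76.9%, 60.7 to 88.9) had a partner, whereas its flanks had 74.5% and 68.5%. In Igk it was 48 of 59 (81.4%, 69.1 to 90.3) and 48 of 70 (68.6%, 56.4 to 79.1), with 73.0% and 66.5% in the flanks. In Tcra/Tcrd it was 39 of 52 (75%, 61.1 to 86.0) and 39 of 57 (68.4%, 54.8 to 80.1), with 75.6% and 74.4% in the flanks. In Tcrb it was 6 of 9 (66.7%, 29.9 to 92.5) and 6 of 10 (60.0%, 26.2 to 87.8). All 8 intervals contain the share of the whole list. Since the share depends on width, the shares of each width class outside the loci were also applied to the widths of the locus peaks. This gave 33.5 STD and 25.4 HFD peaks with a partner in Igh, against 30 in each list, and 44.6 and 49.9 in Igk, against 48.

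**Figure D3:**
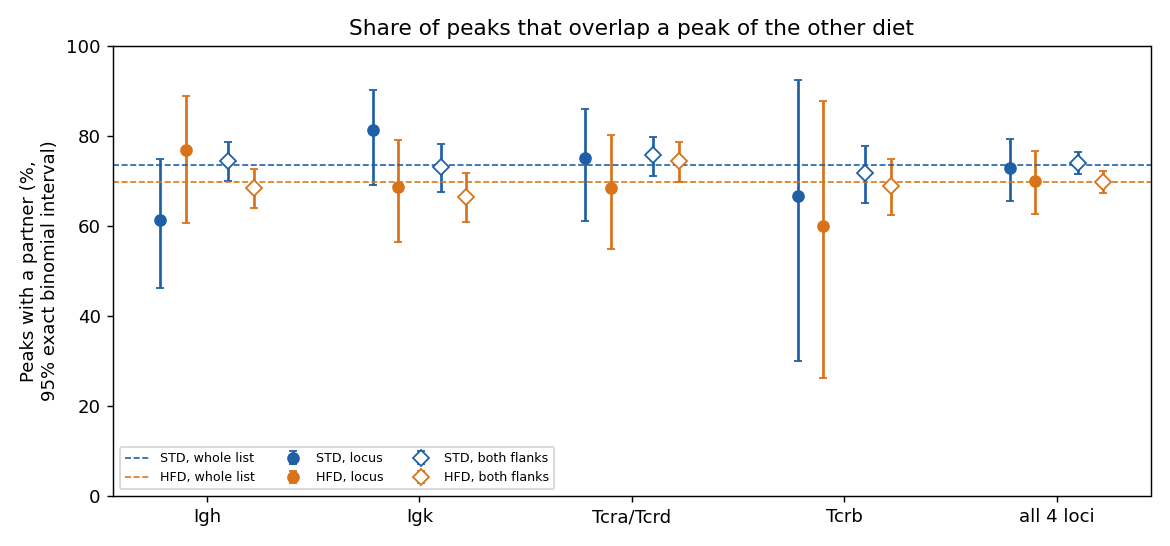
Percent of peaks with a partner in the other diet's list (vertical axis) in each locus (filled circles) and its flanks (open diamonds), for STD (blue) and HFD (orange), with exact 95% binomial intervals; dashed lines are the whole lists. The intervals of all 8 loci values contain the dashed line of their color.

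Peaks found with 1 diet only were also counted along Igh and Igk. In Igh, 19 peaks were STD only and 9 were HFD only, so HFD made up 32.1% (15.9 to 52.4) of them, against 54.7% over the whole lists and 57.6% (51.2 to 63.8) in its flanks. Of these, 5 HFD-only and 2 STD-only peaks were in part 1, at the constant end, and 4 and 17 were in the other 90%. Parts 2 to 4 held 8 STD-only peaks among 14 STD peaks, and no HFD-only peak among only 6 HFD peaks. In Igk, 22 peaks were HFD only and 11 STD only, an HFD share of 66.7% (48.2 to 82.0). That interval contains both the 54.7% of the whole lists and the 57.8% of the Igk flanks. Parts 2 to 7 of Igk, from 67818001 to 69726000, held 15 HFD-only peaks among 45 HFD peaks. The HFD share with a partner there, 66.67% (51.05 to 80), was near the 69.75% of the whole HFD list. All 30 STD peaks in these parts had a partner. The next part held 6 STD-only peaks among 9 STD peaks and no HFD-only peak among only 3 HFD peaks. Over the whole lists, 26.5% of STD and 30.3% of HFD peaks had no partner. These sections were chosen after their counts had been seen, and counts this small carry no test with 1 library per diet. In Tcra/Tcrd there were 13 STD-only and 18 HFD-only peaks, and in Tcrb 3 and 4.

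The distance from a peak without a partner to the nearest peak of the other diet varied between loci. It depends on how dense the other list is, and was not adjusted for the lower density of the loci. Over the 4 loci its median was 14.9 kb for the STD peaks and 8.39 kb for the HFD peaks, and in the whole lists 3.24 and 3.60 kb. In Igh it was 28.1 kb (STD) and 3.09 kb (HFD), and in Igk 31.6 and 11.4 kb. In Tcra/Tcrd it was 2.96 and 4.82 kb, and in Tcrb 21.8 and 34.0 kb. The HFD value of Igh and the STD value of Tcra/Tcrd were thus below those of the whole lists. The largest was 167 kb, for an STD peak of Igh on chromosome 12 from 114869103 to 114869380, 278 bp wide. In Igk the largest was 112.8 kb, for the STD peak from 70024922 to 70025210 on chromosome 6. Among the HFD peaks of the 4 loci it was 94.7 kb, for the Igk peak from 69658119 to 69658379. This HFD peak was 261 bp wide, which is 6 bp above the narrowest width in the HFD list.

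Median peak widths differed from those of the flanks by 38.5 bp or less. Over the 4 loci the median was 322 bp in both lists, and in the flanks it was 333 (STD) and 319 bp (HFD). In Igh it was 310 bp with STD and 299 bp with HFD, against 348 and 325 bp in its flanks. In Igk the medians were 324 and 346 bp, against 327 and 318 bp. In Tcra/Tcrd they were 346 and 317 bp, against 333 and 319 bp. In Tcrb they were 286 and 305.5 bp, against 324.5 and 308.5 bp. An order-statistic interval of the locus median left out the flank value for Igh with STD and contained it in the other 7 cases. Covered length was small: peaks took up 0.589% (STD) and 0.461% (HFD) of Igh, against 4.01% and 4.17% of its flanks. The values were 0.711% and 0.839% for Igk, 1.03% and 1.04% for Tcra/Tcrd and 0.430% and 0.468% for Tcrb.

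The broadest peaks were found with both diets. The widest of the 4 loci was in Igk, on chromosome 6 from 68748737 to 68749651, with 915 bp in the STD list and a partner of 799 bp in the HFD list. The next widest STD peak of Igk, from 69101956 to 69102667, had 712 bp against 646 bp. The second widest HFD peak of Igk, from 68768461 to 68769175, was less alike, with 715 bp against 322 bp. In Igh, the STD peak from 114619302 to 114620047 on chromosome 12 was 746 bp wide and its partner 524 bp. It lies 4.70% of the way into the locus, on the constant side. The widest HFD peak of Igh, from 116521282 to 116521917, lies in the V array and had 636 bp against 398 bp. In Tcra/Tcrd, the peak from 54699728 to 54700381 on chromosome 14 was 654 bp wide with STD and 633 bp with HFD, near the constant end at 91.9% of the locus. The next widest STD peak of Tcra/Tcrd, from 54555204 to 54555808, had 605 bp against 360 bp.

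The broadest peaks without a partner were narrower. In Igh the widest was an STD peak of 488 bp, from 116801722 to 116802209, with the nearest HFD peak 5.01 kb away. The widest HFD peak of Igh without a partner had 354 bp, from 114519407 to 114519760, and its nearest STD peak was 8.63 kb away. In Igk the widest were an STD peak of 419 bp, from 70014549 to 70014967 and 102 kb from any HFD peak, and an HFD peak of 484 bp, from 68608335 to 68608818 and 4.42 kb from an STD peak. In Tcra/Tcrd they were 367 bp (STD, from 54615063 to 54615429) and 429 bp (HFD, from 54288686 to 54289114). Over the 4 loci, peaks without a partner had median widths of 279.5 and 280 bp, and peaks with one 338 and 343 bp. The whole lists were alike, with 290 (STD) and 281 bp (HFD) without a partner and 354 and 345 bp with one. Among locus peaks over 200 bp above the narrowest of their list, 95.8% (STD) and 90.9% (HFD) had a partner. Outside the loci these shares were 93.7% and 92.8%, so this link with width was not particular to the loci.

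**Figure D4:**
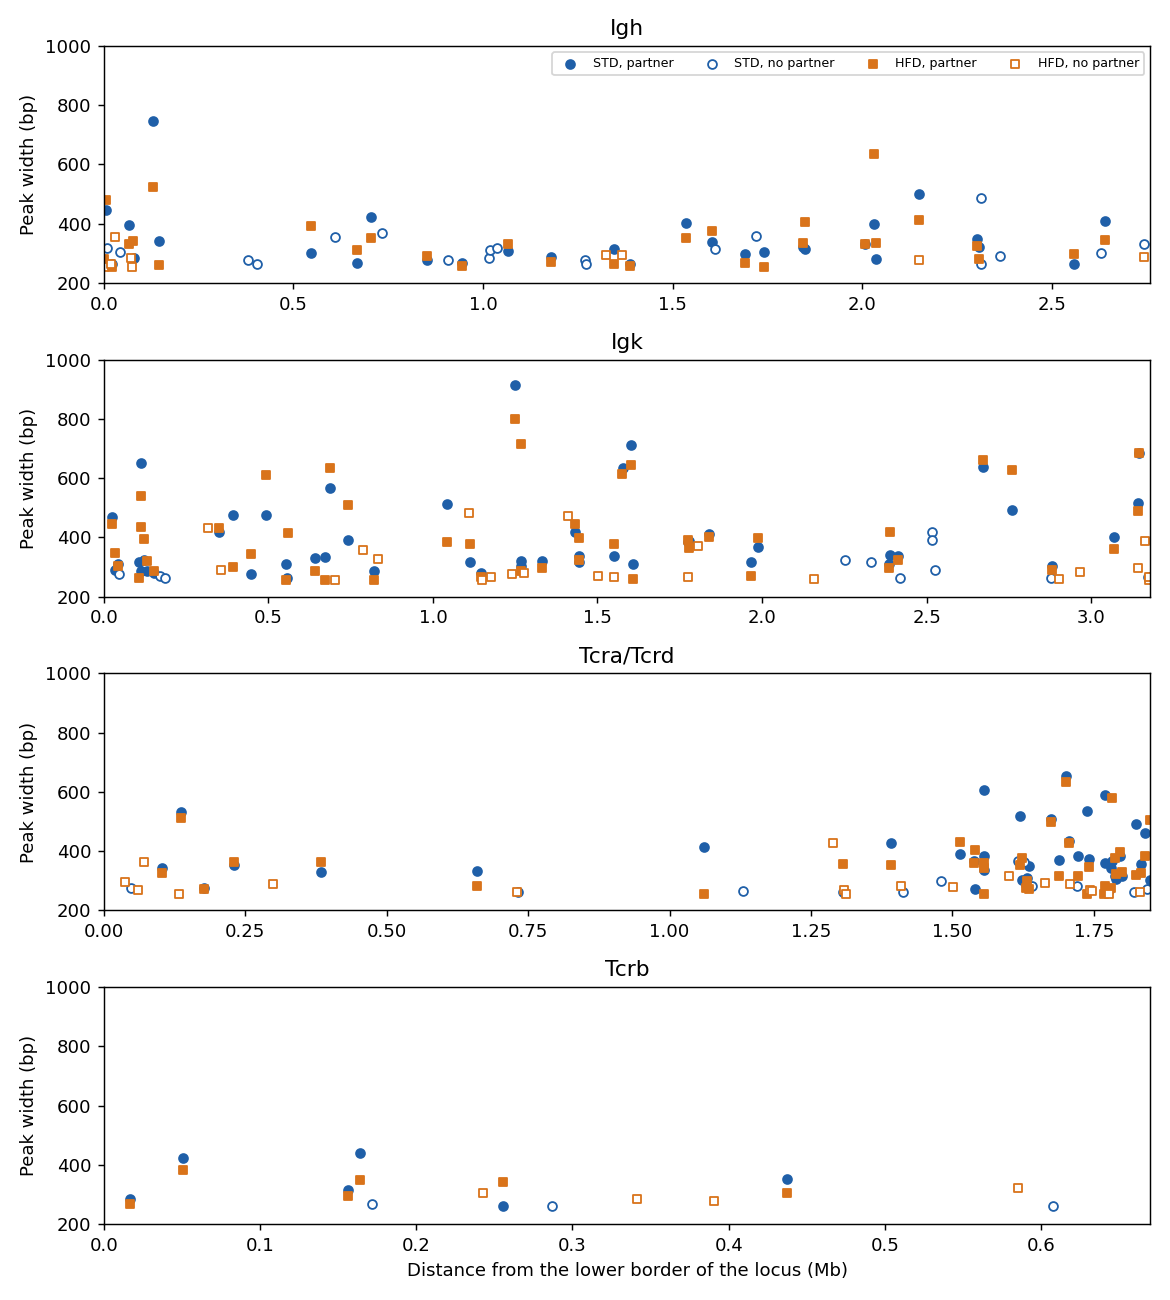
Width in bp (vertical axis) of every peak against its distance from the lower border of the locus in Mb (horizontal axis), for STD (blue circles) and HFD (orange squares), filled where the peak has a partner and open where it has none. Open symbols lie mostly at low widths, and in Tcra/Tcrd most peaks crowd into the last 20% of the locus.

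All 19 Tcrb peaks can be given singly. The 6 regions found with both diets, on chromosome 6, began with a pair of 286 bp (STD) and 268 bp (HFD) at 40856909, and a pair of 425 and 382 bp at 40890403. These were followed by pairs of 315 and 295 bp at 40995986, of 441 and 351 bp at 41003875, of 263 and 343 bp at 41095654 and of 354 and 305 bp at 41276916, all positions being STD starts. In 5 of the 6 the HFD peak was the narrower. The 3 STD-only peaks, at 41011372, 41126837 and 41447380, were 268, 263 and 263 bp wide, at or within 5 bp of the narrowest width in the list. The 4 HFD-only peaks, at 41082366, 41181437, 41230418 and 41425280, had 306, 285, 279 and 323 bp. Parts 8 to 10, toward the constant end, held 1 STD and 1 HFD peak, and neither had a partner.

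Partners were closely aligned. The 123 pairs of the 4 loci were all 1 to 1, with midpoints a median of 26.5 bp apart, and the shorter peak lay inside the longer to a median of 99.5% of its length. Over the whole lists, 1 to 1 pairs had medians of 24 bp and 99.2%, so the alignment in the loci was ordinary. The largest midpoint distance in the loci was 233.5 bp, in Tcra/Tcrd. The HFD peak was the narrower in 74 of the 123 pairs (60.2%), against 56.0% of the 120322 pairs of the whole lists in which each peak had exactly 1 partner. The median HFD minus STD width was -12 bp (quartiles -51 and 35 bp), and -8 bp in those pairs of the whole lists, whose narrowest peaks are 263 bp (STD) and 255 bp (HFD). In Tcra/Tcrd it was -18 bp, with 26 of 39 HFD peaks narrower, in Igk -10.5 bp with 27 of 48 and in Igh -6.5 bp with 16 of 30.

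**Figure D5:**
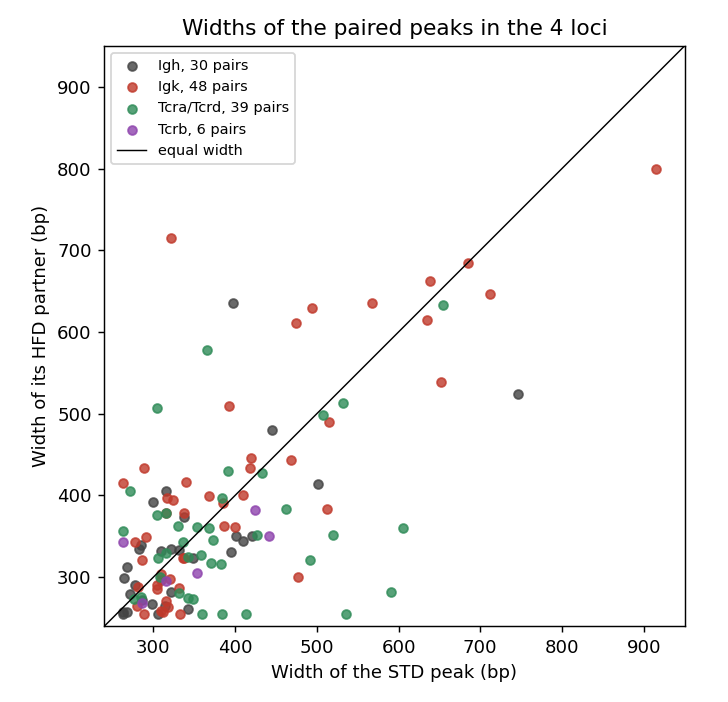
Width of the HFD partner (vertical axis, bp) against the width of the STD peak (horizontal axis, bp) for the 123 pairs, colored by locus, with the line of equal width. Of these, 74 points lie below the line, and the widest pair, at 915 and 799 bp, is in Igk.

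The borders of the rule passed between peaks in most places. The nearest peak was in Tcra/Tcrd, where an STD peak from 54849938 to 54850411 had its midpoint 0.174 kb beyond the upper border and was left out. The last peaks inside that border were 1.13 kb (STD, 304 bp wide) and 1.22 kb (HFD, 507 bp wide) from it. At the lower border of Igh the first HFD peak was 0.889 kb inside and the first STD peak 1.32 kb inside, and the last ones outside were 7.90 and 18.4 kb away. At the other 6 borders the nearest peak was 3.19 kb or more from the line.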

How the data were processed

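The authors deposited 1 peak list per library, with 4 columns (chromosome, start, end and name) and no score, height or count. Per the submitters' processing notes, BWA was the aligner and mm9 the build. How peaks were called, whether reads matching several places were kept and whether mice were pooled is not given in the sources used here. Filters may treat reads from near-identical V segments differently, and depth is unknown. Groups follow the diet in the labels.

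Nuclear peaks were assigned to loci by midpoint, with flanks of 2 Mb on each side. Partners overlap by at least 1 bp, and their numbers were identical with bedtools 2.31.1. Shares have exact Clopper-Pearson intervals, densities Poisson intervals and ratios exact conditional binomial intervals, all at 95% and treating peaks as independent. Positions count from 1. The scripts (Python 3.11.15, numpy 2.4.6, pandas 2.3.3, scipy 1.17.1, matplotlib 3.10.9) were tested on simulated lists. Named peaks are the 2 widest per locus and list, the widest without a partner and those nearest the borders. The single Tcrb peaks, the most distant peaks without a partner and the sections of several parts were added after their values were seen. The loci were chosen with earlier results of these data known. The sequence tables used here have no entry for these segments, so no sequence is printed. Alternatives were other overlap rules, width limits, flank lengths, borders and covered bases.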

Additional observations from a re-analysis of the deposited data

How the results depend on the processing

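Of 183 recomputed values for 28 results, 172 stayed within the counting interval of the value reported and 11 moved outside it. A change of direction was counted only where that interval left out no difference. This was so for the 8 density ratios and the width of Igh with STD, and none of these changed direction. Elsewhere directions did change: the HFD over STD ratio crossed 1 under some alternatives in Igk, Tcra/Tcrd and Tcrb, and some width differences changed sign. The density of the loci over their flanks ranged from 0.0946 to 0.422 and stayed below 1 under every alternative. With flanks of 5 Mb it was 0.392 (STD) and 0.422 (HFD) in Igk. Without the 20% at the constant gene end, an alternative added after seeing the data, it fell to 0.104 and 0.128 in Tcra/Tcrd. There 9 of 15 STD peaks (60.0%, 32.29 to 83.66) and 9 of 19 HFD peaks (47.4%, 24.45 to 71.14) then had a partner. Both intervals contain the shares of the whole lists, 73.52% (STD) and 69.75% (HFD). With the 83216 widest peaks of either list, which a partner also had to be among, the share was 52.9% in Igh (HFD) and 55.2% in Tcra/Tcrd (STD). Among peaks of at least 300 bp it was 68.2% in Igk (STD) and 84.4% in Tcra/Tcrd (HFD). The shares of the whole lists and of the flanks under these filters were not computed, so these values have no background beside them. The HFD over STD ratio of Tcra/Tcrd was 0.625 for peaks over 200 bp above the narrowest of their list; Tcrb has no such STD peak and gave no value. Widths above the minimum give the same differences from the flanks by construction. No paired analysis was possible because there is a single library for STD and for HFD, which also leaves no replicate to drop. A missing peak may lie below a threshold set by the unknown depth.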
